A study of Mus musculus with 6 samples.

Results

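A set of 9 genes that mark microfold cells was followed in cultured fetal thymic stroma: the transcription factors *Spib* and *Sox8*, the surface glycoprotein *Gp2*, the chemokines *Ccl20*, *Ccl9* and *Ccl6*, the secreted protein *Pglyrp1*, and *Tnfaip2* and *Anxa5*. They were chosen by name, and each matched 1 of the 22513 gene entries of the RNA-seq table. All 9 reached a mean of 0.1 FPKM (fragments per kilobase of transcript, scaled to the mapped fragments of the library), the level above which genes were tested. With RANKL, 6 of the 9 were called higher, as were 10.5% of all 15894 genes tested. In WT the rise ran from 1.32-fold for *Anxa5* to 24.2-fold for *Pglyrp1* and further for *Ccl20*, which was close to 0 without RANKL. The *Anxa5* call was lost in 7 of 14 alternative fits. Under RANKL, *Gp2* was called lower in *Jmjd6*-/- than in WT stroma, 2.49 ± 0.508 against 8.61 ± 1.55 FPKM (mean ± SD, n = 2 libraries each), as were 1.82% of all genes tested. The *Gp2* call was lost in 4 of 13 alternative fits. Between the genotypes *Spib*, *Sox8* and *Ccl9* differed by less than the spread between libraries.

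Microfold cells (M cells) are epithelial cells of the lining over gut lymphoid follicles that carry particles and bacteria from the lumen to the immune cells beneath. RANKL, a cytokine of the tumour necrosis factor family, signals through its receptor RANK to NF-kB proteins and brings about M-cell differentiation, during which Spi-B and Sox8 act as transcription factors and GP2 appears on the mature cell as a receptor for bacteria. In the thymus the same cytokine matures medullary thymic epithelial cells (mTECs), the cells that express Aire and tissue-specific antigens, and some mTECs have been described that carry an M-cell-like set of genes.

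The study asked which genes depend on Jmjd6, a nuclear lysyl hydroxylase, when thymic stroma answers RANKL. Thymic lobes from fetal WT and *Jmjd6*-/- mice, both of C57BL/6 background, were kept in organ culture with 2'-deoxyguanosine (2-DG), which depletes blood-forming cells, for 4 days. There were 4 groups: unstimulated WT (1 library), unstimulated *Jmjd6*-/- (1 library), WT with RANKL for 4 days (2 libraries, WT RANKL 1 and 2) and *Jmjd6*-/- with RANKL for 4 days (2 libraries, *Jmjd6*-/- RANKL 1 and 2). All 4 groups had received 2-DG, and *Jmjd6* was disrupted in the whole mutant embryo rather than in the epithelium alone. The treatment protocol in the labels names RANKL throughout, whereas the titles and the stimulation field set the unstimulated samples apart, and the groups were taken from those. The repeated libraries are called technical duplicates in the labels and samples in the study's methods, so that p-values measure the spread between libraries, which may be technical.

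*Jmjd6* and *Aire* served as checks of the labels. *Jmjd6* measured 26.3 FPKM in unstimulated WT, 25.9 and 32.5 in WT with RANKL, 1.32 in unstimulated *Jmjd6*-/- and 1.96 and 1.78 in *Jmjd6*-/- with RANKL, and thus was low in the 3 libraries labelled *Jmjd6*-/-. *Aire*, the regulator of tissue-specific antigens in mTECs, measured 0.142 and 0.473 FPKM in the unstimulated libraries and between 67.1 and 79.7 in the 4 RANKL libraries, in keeping with the labelled stimulation. The estimated depth lay between 15200000 and 31300000 fragments, lowest in WT RANKL 2. The WT RANKL libraries resembled each other less (Pearson r = 0.973 across 12587 genes, median absolute log2 difference 0.276) than the *Jmjd6*-/- RANKL libraries did (r = 0.996, median absolute difference 0.0767). The RNA came from whole stroma, so a change in the number of cells of a type and a change in RNA per cell cannot be told apart, and no member can be placed in a cell type from these values.

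The regions upstream of the members are shown first, because the pathway from RANK ends at NF-kB proteins, which bind kB motifs in DNA, and Spi-B binds ETS motifs. The RefSeq promoter windows (GRCm38.p6, the same assembly as the mm10 of the files) run from 250 bases before the annotated start of each gene to 50 bases after it, and all 9 members had one. They were searched on both strands for GGNNTTTCC, a kB-like motif, and for GAGGAA, the core bound by ETS factors such as PU.1 and Spi-B, and the matches to the pair of motifs did not overlap in these windows. Among the members called higher with RANKL, *Ccl20* and *Pglyrp1* had the lowest levels without it. Their windows are printed 5′ to 3′ on the gene's strand, with matches to either motif in capitals. Those of the chemokine neighbours *Ccl9* and *Ccl6*, and of *Gp2*, follow in the same form.
Ccl20 promoter, chr1:83116516-83116815, plus strand: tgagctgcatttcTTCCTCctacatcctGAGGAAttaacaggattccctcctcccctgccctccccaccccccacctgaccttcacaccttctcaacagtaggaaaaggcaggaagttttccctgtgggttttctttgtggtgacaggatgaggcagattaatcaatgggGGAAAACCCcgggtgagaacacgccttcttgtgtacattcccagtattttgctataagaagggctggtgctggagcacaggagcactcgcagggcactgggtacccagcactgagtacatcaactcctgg
Pglyrp1 promoter, chr7:18884440-18884739, plus strand: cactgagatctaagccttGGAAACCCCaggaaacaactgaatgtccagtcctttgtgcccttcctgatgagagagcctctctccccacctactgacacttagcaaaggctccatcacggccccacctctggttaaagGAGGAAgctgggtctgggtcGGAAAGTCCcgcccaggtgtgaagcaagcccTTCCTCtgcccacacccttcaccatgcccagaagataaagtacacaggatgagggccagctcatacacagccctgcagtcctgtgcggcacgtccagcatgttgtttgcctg
Ccl9 promoter, chr11:83578587-83578886, minus strand: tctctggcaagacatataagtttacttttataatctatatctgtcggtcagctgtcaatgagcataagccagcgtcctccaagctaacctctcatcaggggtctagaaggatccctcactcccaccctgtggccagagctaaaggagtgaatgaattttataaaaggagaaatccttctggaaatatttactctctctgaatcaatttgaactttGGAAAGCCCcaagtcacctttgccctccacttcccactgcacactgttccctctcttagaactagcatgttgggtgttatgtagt
Ccl6 promoter, chr11:83593038-83593337, minus strand: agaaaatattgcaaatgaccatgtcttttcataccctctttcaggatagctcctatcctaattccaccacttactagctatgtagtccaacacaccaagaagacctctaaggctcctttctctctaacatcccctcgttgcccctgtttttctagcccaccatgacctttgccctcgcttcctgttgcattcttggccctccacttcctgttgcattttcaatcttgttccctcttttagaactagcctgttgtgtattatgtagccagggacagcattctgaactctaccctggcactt
Gp2 promoter, chr7:119459223-119459522, minus strand: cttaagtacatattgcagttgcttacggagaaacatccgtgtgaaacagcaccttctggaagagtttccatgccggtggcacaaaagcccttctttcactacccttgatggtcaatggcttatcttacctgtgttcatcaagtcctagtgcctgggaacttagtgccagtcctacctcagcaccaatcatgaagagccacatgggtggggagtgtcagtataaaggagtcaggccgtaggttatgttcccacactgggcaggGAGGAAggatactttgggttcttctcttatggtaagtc

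The kB-like motif was present in the windows of 4 of the 9 members, *Ccl20*, *Ccl9*, *Tnfaip2* and *Pglyrp1*, and in 5.82% of the 32851 mouse promoter windows of the same length. In *Ccl20* the match spanned bases -80 to -72 from the start (GGAAAACCC, on the opposite strand), and in *Ccl9* it spanned -35 to -27 (GGAAAGCCC, opposite strand). *Pglyrp1* held a pair of matches, at -232 to -224 and at -93 to -85, while that of *Tnfaip2*, a gene that did not pass the test for RANKL, lay at -87 to -79. The GAGGAA core was found in 3 of the 9 windows, those of *Gp2*, *Ccl20* and *Pglyrp1*, against 28.3% of all windows. The *Gp2* match lay downstream of the start, at +13 to +18. These are matches of letters, not binding sites, and windows without one, such as those of *Spib* and *Ccl6*, say nothing of sites elsewhere. The *Ccl6* and *Ccl9* windows shared a stretch around the start in which 59 of 74 aligned columns (79.7%) were identical, with an alignment score of 71. It ran from -59 to +15 in *Ccl6* and from -18 to +49 in *Ccl9*. The next score was 25 (*Tnfaip2* and *Spib*, 14 of 15 columns identical). Some longer alignments, such as *Ccl20* with *Gp2* (28 of 38 columns identical, score 21), scored lower still.

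The first comparison asks which members respond to RANKL, with both genotypes in the fit. Of the 9, 6 passed the test as higher (*Spib*, *Ccl20*, *Ccl9*, *Ccl6*, *Pglyrp1* and *Anxa5*) and 0 as lower. Over all 15894 genes tested, 10.5% were called higher and 4.11% lower (limma on log2(FPKM + 0.1), Benjamini-Hochberg adjusted p under 0.05). The members' median log2 difference was 2.20, within a range of 0.27 to 4.47, while the median of all genes tested was -0.02. In 8 of the 9 members all 4 RANKL libraries lay above both unstimulated libraries, an arrangement found in 18.9% of all genes tested, and the exception was *Gp2*. For a single gene, an exact permutation test of 4 libraries against 2 cannot go below a two-sided p of 0.0667. The members had been picked with earlier results of these data known, so the counts describe them and are no independent sign of a response.

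**Figure D1:**
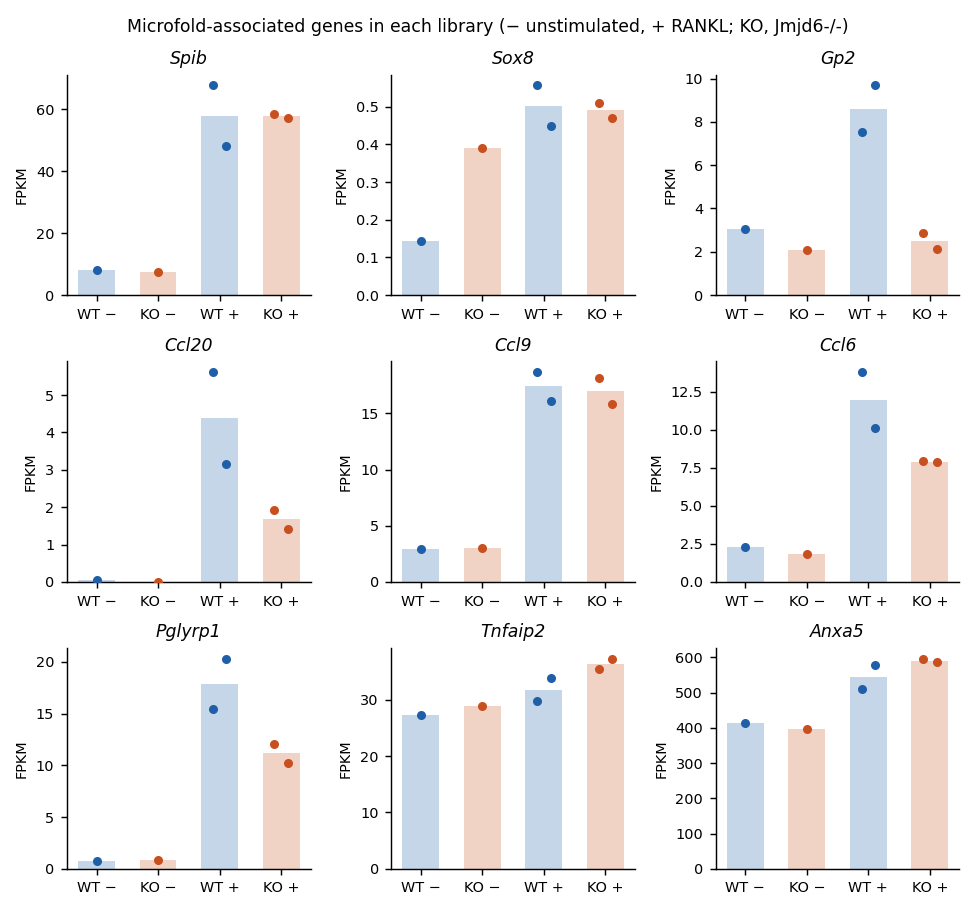
FPKM (linear axis from 0, a scale of its own for each gene) of the 9 members in the 6 libraries, with points for libraries and bars for group means; WT, blue; *Jmjd6*-/- (KO), orange; −, unstimulated; +, RANKL. *Spib* and *Ccl9* reach similar levels with RANKL in both genotypes, whereas *Gp2* reaches 7.51 and 9.70 FPKM in WT and 2.85 and 2.13 in *Jmjd6*-/-.

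*Spib* (XLOC_018474, chr7:44525995-44532071, minus strand, mm10) encodes Spi-B, an ETS-family factor needed for M-cell maturation that is also used by B cells and plasmacytoid dendritic cells. It measured 7.95 FPKM in unstimulated WT, 7.47 in unstimulated *Jmjd6*-/-, 67.8 and 48.0 in WT with RANKL and 58.3 and 57.2 in *Jmjd6*-/- with RANKL. Every RANKL library was several-fold above both unstimulated ones, and the *Jmjd6*-/- pair fell between the WT pair. *Spib* rose by 2.88 on the log2 scale (SE 0.14, 95% interval 2.54 to 3.22, adjusted p = 7.3e-05), which was 7.28-fold in WT and 7.73-fold in *Jmjd6*-/- on the FPKM scale. It thus was the transcription factor of the set with a clear level before stimulation and the second most abundant member after it.

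*Sox8* (XLOC_008579, chr17:25565893-25570686, minus strand) encodes an SRY-box factor that acts in late M-cell differentiation and on *Gp2*. It was the least abundant member, at 0.143 FPKM in unstimulated WT, 0.392 in unstimulated *Jmjd6*-/-, 0.558 and 0.448 in WT with RANKL and 0.510 and 0.471 in *Jmjd6*-/- with RANKL. These values stand for about 12.8 to 45.5 fragments a library, and although all 4 RANKL libraries were the highest, the unstimulated *Jmjd6*-/- value lay close below them. *Sox8* did not pass the test (log2 difference 0.78, SE 0.32, interval 0.02 to 1.55, adjusted p = 0.159). The uncharacterized gene 2810468N07Rik, which starts beside *Sox8* on the opposite strand and overlaps it in the GENCODE annotation, measured 0.309 and 0.198 FPKM without RANKL and 0.534 to 0.946 with it. It passed the same test at 1.26 on the log2 scale (adjusted p = 0.0247), and how far reads of this pair were kept apart was not tested.

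*Gp2* (XLOC_018918, chr7:119442544-119459272, minus strand) encodes the GPI-anchored receptor of mature M cells for type 1-fimbriated bacteria and is otherwise best known from the granules of pancreatic acinar cells. It measured 3.04 FPKM in unstimulated WT and 7.51 and 9.70 in WT with RANKL. In *Jmjd6*-/- stroma it measured 2.1 FPKM unstimulated and 2.85 and 2.13 with RANKL. Both WT RANKL libraries stood above all others, and the *Jmjd6*-/- libraries lay below unstimulated WT whether stimulated or not. The mean with RANKL was 2.83-fold that without it in WT and 1.18-fold in *Jmjd6*-/-. Averaged over the genotypes, the log2 difference of 0.84 (SE 0.30, interval 0.12 to 1.55) did not pass (adjusted p = 0.117). Without the unstimulated *Jmjd6*-/- library the fit gave the difference within WT, 1.46 (adjusted p = 0.0436), and without the unstimulated WT library that within *Jmjd6*-/-, 0.22 (adjusted p = 0.820). Each of these rests on 1 unstimulated library, assumed to vary like the RANKL pairs.

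*Ccl20* (XLOC_000218, chr1:83116766-83119167, plus strand) encodes the ligand of CCR6, which over gut follicles draws B cells and dendritic cells towards the epithelium. It was listed at 0.0534 FPKM in unstimulated WT, about 2 fragments, and at 0 in unstimulated *Jmjd6*-/-. With RANKL it measured 5.62 and 3.16 FPKM in WT and 1.93 and 1.41 in *Jmjd6*-/-. Neither the stimulated and unstimulated libraries nor the genotypes under RANKL overlapped, and the lowest RANKL value was far above both unstimulated ones. In WT the ratio of RANKL to unstimulated, from about 264 fragments against 2, was 94.5 with a counting interval of 25.9 to 784 (95%, exact binomial). In *Jmjd6*-/- the mean with RANKL was 11.5-fold the level that 3 fragments would give in the unstimulated library, 0.146 FPKM. The fitted log2 difference of 4.47 (SE 0.32, adjusted p = 0.000333) depends on the added constant, as both unstimulated libraries were at or near 0. It was the largest of the set with a constant of 0.1, but with a constant of 1 it was 1.86, below those of *Pglyrp1* (3.07), *Spib* (2.75) and *Ccl9* (2.19).

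*Ccl9* (XLOC_003570, chr11:83572917-83578636, minus strand) encodes a CC chemokine that binds CCR1 and is made by the epithelium over gut follicles as well as by macrophages and osteoclasts. It measured 2.93 and 3.02 FPKM in unstimulated WT and *Jmjd6*-/-, 18.7 and 16.1 in WT with RANKL, and 18.2 and 15.8 in *Jmjd6*-/- with RANKL. The unstimulated libraries were nearly alike, and so were the genotypes after stimulation, with overlapping values. *Ccl9* rose by 2.49 on the log2 scale (SE 0.12, interval 2.20 to 2.77, adjusted p = 7.14e-05), or 5.93-fold in WT and 5.61-fold in *Jmjd6*-/-.

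*Ccl6* (XLOC_003571), a paralogue of *Ccl9* beside it on chromosome 11 and another ligand of CCR1, measured 2.27 and 1.81 FPKM in unstimulated WT and *Jmjd6*-/-, 13.8 and 10.1 in WT with RANKL, and 7.95 and 7.87 in *Jmjd6*-/- with RANKL. All RANKL libraries were above the unstimulated ones, and both *Jmjd6*-/- values lay below both WT values. *Ccl6* rose by 2.20 on the log2 scale (SE 0.16, interval 1.82 to 2.59, adjusted p = 0.000372), by 5.28-fold in WT and 4.37-fold in *Jmjd6*-/-. The entry spans chr11:83582061-83623693, a locus that also holds the opposite-strand gene E230016K23Rik, so reads of the pair, and of the similar *Ccl9*, may not have been fully separated by the authors' counting.

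*Pglyrp1* (XLOC_017204, chr7:18884690-18890438, plus strand) encodes a secreted peptidoglycan recognition protein that kills bacteria and is found in M cells and, abundantly, in neutrophil granules. Without RANKL it measured 0.738 FPKM in WT and 0.853 in *Jmjd6*-/-, and with RANKL 15.4 and 20.3 in WT and 12.1 and 10.2 in *Jmjd6*-/-. The unstimulated values rest on about 12.6 and 7.5 fragments, the RANKL values on 110.9 to 238.7, with no overlap. *Pglyrp1* rose by 3.98 on the log2 scale (SE 0.23, interval 3.44 to 4.53, adjusted p = 0.000132), 24.2-fold in WT and 13.1-fold in *Jmjd6*-/-.

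The last 2 members were abundant before stimulation and moved little. *Tnfaip2* (XLOC_004307, chr12:111442661-111455018, plus strand), which encodes M-Sec, a protein that helps form membrane nanotubes and is itself a tumour necrosis factor-induced gene, measured 27.4 FPKM in unstimulated WT, 28.9 in unstimulated *Jmjd6*-/-, 29.8 and 33.8 in WT with RANKL and 35.4 and 37.3 in *Jmjd6*-/- with RANKL. The lowest RANKL value was just above the higher unstimulated one, and the log2 difference of 0.27 (SE 0.09, adjusted p = 0.101) did not pass, although it did without WT RANKL 1 (0.32, adjusted p = 0.0273). *Anxa5* (XLOC_012739, chr3:36448924-36475887, minus strand), which encodes the phosphatidylserine-binding annexin A5 and is expressed by many cell types, measured 414 and 397 FPKM unstimulated, 511 and 579 in WT with RANKL and 596 and 586 in *Jmjd6*-/- with RANKL. The steps between groups were small against the level but the libraries did not overlap. *Anxa5* rose by 0.48 on the log2 scale (SE 0.10, interval 0.24 to 0.73, adjusted p = 0.0235), a call that was lost without either unstimulated library (0.57, adjusted p = 0.160 without WT; 0.39, adjusted p = 0.258 without *Jmjd6*-/-) and without either *Jmjd6*-/- RANKL library (adjusted p = 0.118 and 0.108).

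Per length, the order of levels with RANKL in WT was *Anxa5*, *Spib*, *Tnfaip2*, *Pglyrp1*, *Ccl9*, *Ccl6*, *Gp2*, *Ccl20* and *Sox8*. Of these neighbours, *Pglyrp1* and *Ccl9* overlapped between libraries (15.4 to 20.3 against 16.1 to 18.7 FPKM) and the others did not. In *Jmjd6*-/- with RANKL the order was the same except that *Ccl9* stood above *Pglyrp1*, 15.8 to 18.2 against 10.2 to 12.1 FPKM.

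The second comparison asks which members differ between *Jmjd6*-/- and WT stroma under RANKL. A single member, *Gp2*, passed the test as lower in *Jmjd6*-/-, and 0 passed as higher. Over all 15894 genes tested, 1.82% were called lower in *Jmjd6*-/- and 0.516% higher. The median difference of the 9 members was -0.04 on the log2 scale, from -1.75 to 0.20, and that of all genes tested was 0.01. Under RANKL, the *Jmjd6*-/- pair was below the WT pair without overlap in 4 members, *Gp2*, *Ccl20*, *Ccl6* and *Pglyrp1*, an arrangement seen in 26.2% of all genes tested, and above them in 2, *Tnfaip2* and *Anxa5*, against 24.5% of all genes. With 2 libraries against 2, an exact permutation test of a single gene cannot go below a two-sided p of 0.333.

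**Figure D2:**
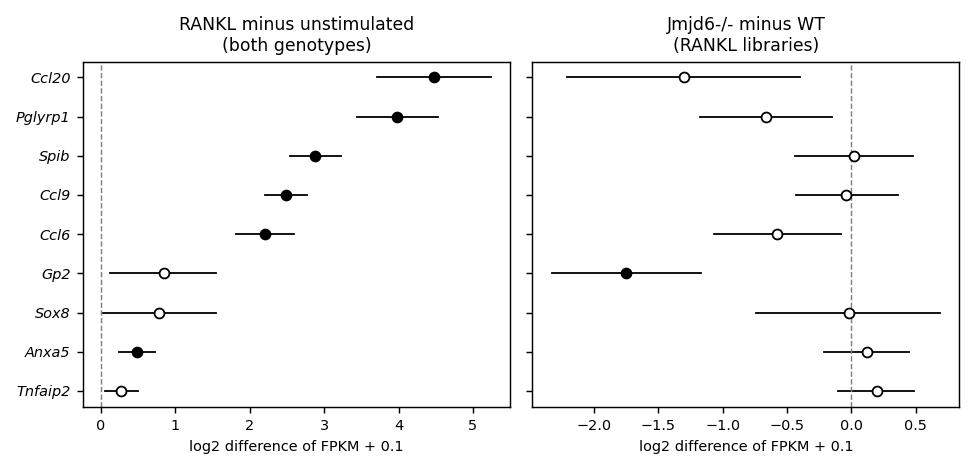
Log2 differences of FPKM + 0.1 for the 9 members, with RANKL against unstimulated libraries at left and *Jmjd6*-/- against WT under RANKL at right; lines, 95% intervals from limma; filled points, adjusted p under 0.05. All 9 estimates at left lie above 0 and 6 are filled, while at right only *Gp2*, at -1.75, is filled.

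For *Gp2* the values above, 7.51 and 9.70 FPKM in WT against 2.85 and 2.13 in *Jmjd6*-/-, made a 3.46-fold difference of the means. The log2 difference of -1.75 (SE 0.23, interval -2.33 to -1.17) had an adjusted p of 0.0348. The call was held narrowly: without WT RANKL 2 (-1.57, adjusted p = 0.0586), without *Jmjd6*-/- RANKL 1 (-1.95, adjusted p = 0.0520) or without *Jmjd6*-/- RANKL 2 (-1.55, adjusted p = 0.136) it was lost with the direction kept, and without WT RANKL 1 it held (-1.93, adjusted p = 0.0341). In each of these fits the lone library is assumed to vary like the pair of the other genotype. Without the filter on low values, the adjusted p was 0.199. In the unstimulated libraries *Gp2* was also lower in *Jmjd6*-/-, by 0.51 on the log2 scale, with 1 library each and no test.

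Among the other members with separated genotypes, *Ccl20* had a WT mean of 4.39 ± 1.74 FPKM and a *Jmjd6*-/- mean of 1.67 ± 0.364 (SD, n = 2 each), 2.63-fold apart. Its log2 difference of -1.30 (SE 0.36, interval -2.21 to -0.40) did not pass (adjusted p = 0.137). *Pglyrp1* had means of 17.8 ± 3.5 and 11.2 ± 1.4 FPKM (log2 difference -0.66, SE 0.21, interval -1.18 to -0.15, adjusted p = 0.172). Without WT RANKL 1 it was -0.86 (adjusted p = 0.0469), again with 1 WT RANKL library and the many calls of that fit. For *Ccl6* the means were 12.0 ± 2.61 and 7.91 ± 0.0579 FPKM (log2 difference -0.58, SE 0.20, interval -1.07 to -0.08, adjusted p = 0.210). These 3 secreted proteins had lower values in both *Jmjd6*-/- libraries, but after adjustment over all genes none of the 3 differences passed.

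The transcription factors and *Ccl9* were near equal between the genotypes. *Spib* averaged 57.9 ± 14.0 FPKM in WT and 57.7 ± 0.778 in *Jmjd6*-/-, a log2 difference of 0.02 with an interval of -0.44 to 0.48 (adjusted p = 0.975). The estimate followed the spread of the WT pair: it was 0.26 without WT RANKL 1 and -0.23 without WT RANKL 2, fits that again rest on a lone WT RANKL library. Without WT RANKL 1, *Spib* passed (adjusted p = 0.0470), in a fit that called 2254 genes higher and 1737 lower. The *Ccl9* difference was -0.04 (interval -0.43 to 0.36, adjusted p = 0.932), and that of *Sox8* was -0.02 (interval -0.74 to 0.69, adjusted p = 0.975), a wide interval for a gene with so few fragments. *Tnfaip2* and *Anxa5* were 1.14-fold and 1.09-fold higher in *Jmjd6*-/- by their means, with log2 differences of 0.20 (interval -0.10 to 0.49, adjusted p = 0.468) and 0.12 (interval -0.21 to 0.45, adjusted p = 0.689).

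The third comparison asks whether the response to RANKL itself differed between the genotypes. No member passed, and of all 15894 genes limma called 0% higher and 0% lower, with 664 genes at an unadjusted p under 0.05. This test leans on 1 unstimulated library per genotype, assumed to vary as the RANKL libraries did. *Gp2* was the one member at an unadjusted p under 0.05 (adjusted p = 1.0 by limma), with a response smaller in *Jmjd6*-/- by 1.24 on the log2 scale (interval of the difference -2.25 to -0.23). The log2 responses in WT and *Jmjd6*-/- were 1.31 and 0.26 for *Sox8* and 4.41 and 3.56 for *Pglyrp1*, against 2.83 and 2.93 for *Spib* and 2.52 and 2.45 for *Ccl9*. The difference was -1.05 for *Sox8* (interval -2.28 to 0.19), where the unstimulated values rest on 12.8 and 18.1 fragments, and -0.85 for *Pglyrp1* (interval -1.74 to 0.05).

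Genes beside *Gp2*, *Ccl6* and *Spib* were read next to them. *Umod*, which encodes uromodulin, the closest relative of GP2 and a gene of some M cells, lies next to *Gp2* and measured 0.120 and 0.0296 FPKM in unstimulated WT and *Jmjd6*-/-, 0.502 and 0.382 in WT with RANKL, and 0.0354 and 0.0241 in *Jmjd6*-/- with RANKL. As for *Gp2*, the WT RANKL pair stood above the other libraries, and the *Jmjd6*-/- libraries were the lowest. The genotype difference of -2.06 on the log2 scale (SE 0.33, interval -2.90 to -1.22) did not pass by limma (adjusted p = 0.0506). All *Umod* values in *Jmjd6*-/- lay below the added constant of 0.1 FPKM, so the size of this difference depends on the constant. The mean that admitted *Umod* to the test came mostly from the WT libraries. Across from *Ccl6*, E230016K23Rik measured 0.0876 FPKM in unstimulated WT, 0.304 in unstimulated *Jmjd6*-/-, 0.757 and 0.578 in WT with RANKL and 0.210 and 0.206 in *Jmjd6*-/- with RANKL. Its log2 difference between the genotypes under RANKL was -1.31 and did not pass (adjusted p = 0.0930), nor did that for RANKL, 0.82 (adjusted p = 0.356), and in *Jmjd6*-/- its RANKL values were below the unstimulated one, unlike those of *Ccl6*. Whether reads of this gene enter the *Ccl6* values was not tested. Beside *Spib*, the DNA polymerase gene *Pold1* measured 18.1 and 16.8 FPKM in WT and 12.0 and 12.4 in *Jmjd6*-/- with RANKL, a log2 difference of -0.51 that did not pass either (adjusted p = 0.104).

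**Figure D3:**
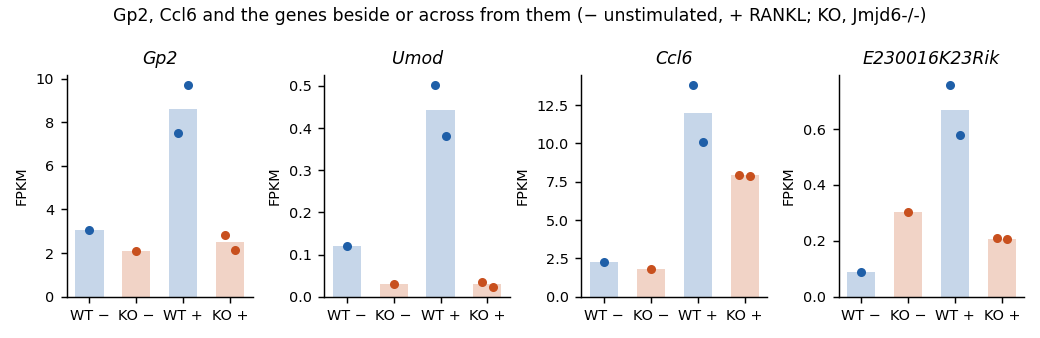
FPKM (linear axis from 0, own scale per gene) of *Gp2* and its neighbour *Umod*, and of *Ccl6* and the opposite-strand gene E230016K23Rik; points, libraries; bars, group means; −, unstimulated; +, RANKL; KO, *Jmjd6*-/-. In all 4 genes the WT RANKL libraries stand highest, and *Umod* lies at 0.502 and 0.382 FPKM in WT with RANKL against 0.0354 and 0.0241 in *Jmjd6*-/-.

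Among 12 other genes reported in M cells, all tested, 4 rose with RANKL, 0 fell, and the median log2 difference was 0.54. *Tnfrsf11b*, which encodes osteoprotegerin, the soluble decoy receptor of RANKL, measured 0.0766 and 0.148 FPKM unstimulated, 26.8 and 13.4 in WT with RANKL and 19.1 and 17.2 in *Jmjd6*-/- with RANKL. It rose by 6.48 on the log2 scale (adjusted p = 5.95e-05), more than any of the 9 members. *Scg5*, a secretory granule chaperone, rose by 2.06 (adjusted p = 0.0124), the lysosomal protease gene *Ctsh* by 0.89 (adjusted p = 0.0163), and the prion protein gene *Prnp* by 0.49 (adjusted p = 0.0184). The remaining 8, *Umod* among them, did not pass. Between the genotypes under RANKL, 0 of the 12 passed in either direction.

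Of 12 genes of the pathway from RANK to NF-kB, 5 rose with RANKL and 0 fell, with a median log2 difference of 0.30. The receptor gene *Tnfrsf11a* (RANK) measured 1.84 and 2.41 FPKM unstimulated, 14.9 and 12.6 in WT with RANKL and 16.1 and 13.7 in *Jmjd6*-/- with RANKL, and rose by 2.70 (adjusted p = 8.36e-05). The inhibitor gene *Nfkbia* rose by 1.14 (adjusted p = 0.00125), and the subunit genes of the non-canonical arm, *Relb* and *Nfkb2*, by 0.95 (adjusted p = 0.0130) and 0.88 (adjusted p = 0.00211). None of the 12 passed between the genotypes, and the median genotype difference was 0.04.

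The receptors of the secreted members were low. *Ccr6*, the receptor of CCL20, was listed at 0 and 0.134 FPKM unstimulated and at 0.678, 0.820, 0.642 and 0.406 in the RANKL libraries, and rose by 2.23 (adjusted p = 0.0180). *Ccr1*, which binds CCL9 and CCL6, rose by 2.32 (adjusted p = 0.000494), from 0.334 and 0.496 FPKM to between 1.91 and 2.99. *Trem1*, proposed as a receptor of PGLYRP1, did not exceed 0.0422 FPKM and was not tested.

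Markers of the epithelium moved with stimulation. Of 9 genes of the medullary epithelium, 6 rose and 0 fell with RANKL, the largest being *Aire* (7.65 on the log2 scale), *Fezf2* (3.57), *Cd80* (3.45) and *Krt14* (2.49), and 0 of the 9 passed between the genotypes. Their summed level, led by *Krt5*, was 1750 and 2180 FPKM unstimulated and 1410 to 2310 with RANKL. Of 6 cortical genes 0 rose and 3 fell, *Ly75* by 0.69, *Cxcl12* by 0.61 and *Prss16* by 0.59 on the log2 scale.

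Several members are also made by blood cells, so marker lists of those cells were read beside them. The gene for the leukocyte antigen CD45, *Ptprc*, measured 6.81 and 6.74 FPKM unstimulated and 2.89 to 3.56 with RANKL, and fell by 1.00 on the log2 scale (adjusted p = 0.00547). All 11 macrophage and monocyte genes were tested. One rose, *Mrc1* (1.48, adjusted p = 0.000563), and 3 fell, *Adgre1* (entered under its older symbol *Emr1*) by 1.00 (adjusted p = 0.0159), *Mpeg1* by 0.78 (adjusted p = 0.0258) and *Csf1r* by 0.62 (adjusted p = 0.0379). Their summed level was 798 and 757 FPKM unstimulated, 690 and 875 in WT with RANKL and 656 and 705 in *Jmjd6*-/- with RANKL, led by *Lyz2* and the complement genes *C1qa*, *C1qb* and *C1qc*. The part of macrophage RNA in the *Ccl9* and *Ccl6* values was not tested.

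Beside *Pglyrp1*, 7 of 9 neutrophil genes were tested, and 4 of them rose with RANKL: *S100a8* (7.41), *Ngp* (2.69), *S100a9* (2.66) and *Mpo* (2.45). The summed level of the list was 3.13 and 15.8 FPKM unstimulated, 113 and 173 in WT with RANKL and 90.1 and 100 in *Jmjd6*-/- with RANKL. With RANKL nearly all of it was *S100a8* and *S100a9*, which epithelial cells also make. In unstimulated *Jmjd6*-/-, *S100a9* gave 7.87 and *Ltf* 7.0 of the 15.8 FPKM. *S100a8* measured 98.2 and 141 FPKM in WT with RANKL and 58.5 and 65.5 in *Jmjd6*-/- with RANKL, highest in WT RANKL 2 as was *Pglyrp1*. *S100a9* went the other way, with 10.4 and 25.5 FPKM in WT and 25.7 and 30.2 in *Jmjd6*-/- with RANKL. By limma, neither the genotype difference of *S100a8* (log2 -0.92, adjusted p = 0.0827) nor that of *S100a9* (0.77, adjusted p = 0.404) passed. The granule genes *Ngp* and *Mpo* reached at most 2.03 and 1.40 FPKM and were lower in *Jmjd6*-/- with RANKL (log2 differences -2.82 and -2.71, adjusted p = 0.0360 and 0.0280), *Ltf* was higher (2.43, adjusted p = 0.0280), and *Elane* was listed at 0 in 5 libraries and at 0.0643 FPKM in WT RANKL 1. *Ngp* and *Mpo* were listed at 0 unstimulated. The mean that admitted them to the test came mostly from the WT RANKL pair, so their calls are not independent of the filter. The part of neutrophil RNA in the *Pglyrp1* values was not tested.

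Beside *Spib*, the B-cell genes summed to 0.551 and 0.523 FPKM unstimulated, 1.64 and 1.84 in WT with RANKL and 1.14 and 0.659 in *Jmjd6*-/- with RANKL. Only 2 of the 5 reached the level for testing, and *Cd79b* rose (1.17, adjusted p = 0.0496). *Pax5*, which B cells need for their identity, was listed at 0 in 5 libraries and at 0.0377 FPKM in *Jmjd6*-/- RANKL 1. Among genes of dendritic and plasmacytoid dendritic cells, 1 of 5 tested rose, *Itgax* (1.94, adjusted p = 0.00590), *Siglech* was listed at 0 in all 6 libraries, and the sums, mostly *Irf8*, were 54.1 and 54.8 FPKM unstimulated and 55.3 to 71.9 with RANKL. The part of these cells in the *Spib* values was not tested.

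The mast cell and T-cell lists were the remaining ones. Of 5 mast cell genes tested, 0 passed for RANKL and 2 were lower in *Jmjd6*-/- under RANKL, *Mcpt4* (-3.51, adjusted p = 0.0360) and *Cma1* (-2.99, adjusted p = 0.0284). In the *Jmjd6*-/- libraries *Cma1* was listed at 0 and *Mcpt4* at 0.0419 FPKM or less. Both genes reached the mean needed for testing through the WT libraries, so these calls are not independent of the filter. The sums over all 7 genes of the list, led by *Kit*, whose genotype difference did not pass (log2 -0.01), were 4.32 and 2.05 FPKM unstimulated, 9.62 and 6.70 in WT with RANKL and 4.95 and 4.04 in *Jmjd6*-/- with RANKL, highest in the WT RANKL pair, as for *Gp2*. Of 3 T-cell genes tested, *Lck* rose with RANKL (1.12, adjusted p = 0.0226), and the sums over all 6 listed were 1.09 and 1.74 FPKM unstimulated, 2.53 and 3.52 in WT with RANKL and 1.69 and 1.59 in *Jmjd6*-/- with RANKL. The bearing of these cells on the members was not tested.

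**Figure D4:**
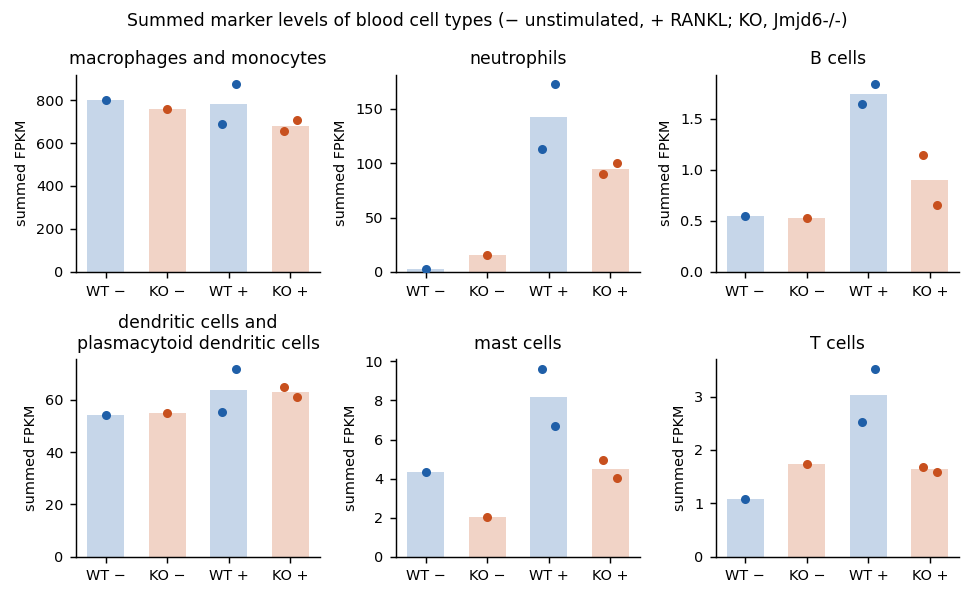
Summed FPKM (linear axis from 0, own scale per panel) of the marker lists of 6 blood cell types in each library; points, libraries; bars, group means; −, unstimulated; +, RANKL; KO, *Jmjd6*-/-. The neutrophil sum goes from 3.13 and 15.8 FPKM unstimulated to 90.1 or more with RANKL. The macrophage sums are 798 and 757 FPKM unstimulated, 690 and 875 in WT with RANKL and 656 and 705 in *Jmjd6*-/- with RANKL.

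*Gp2* is best known from the exocrine pancreas, and a list of 20 acinar genes was added after its values were seen. Most were at or near 0, and 7 were tested. With RANKL 4 rose, *Reg1* (2.50, adjusted p = 0.0350), *Clps* (2.40, adjusted p = 0.0180), *Zg16* (2.15, adjusted p = 0.00991) and *Cel* (1.93, adjusted p = 0.0215). Under RANKL 2 were lower in *Jmjd6*-/-, *Reg1* (-4.21, adjusted p = 0.0280) and *Zg16* (-2.74, adjusted p = 0.0357). Genes entered the test by their mean over the 6 libraries, and in these 4 genes most of it came from the WT RANKL pair. The counts thus describe the list and are no independent sign of a difference. *Reg1*, a secreted lectin, measured 0.269 FPKM in unstimulated WT and 3.31 and 6.26 in WT with RANKL, against 0 in unstimulated *Jmjd6*-/- and 0.247 and 0.0835 with RANKL. The sums of the list were 2.27 and 1.61 FPKM unstimulated, 8.55 and 15.9 in WT with RANKL and 2.61 and 2.30 in *Jmjd6*-/- with RANKL, high in the same 2 libraries as *Gp2*. The digestive genes *Amy2a5* and *Sycn* were listed at 0 in all 6 libraries.

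For the 8 members that averaged 1 FPKM or more, the genes with the most similar pattern were sought by Pearson's r on log2(FPKM + 0.1) over the 6 libraries. These correlations are descriptive, since the points share libraries and the division by stimulation alone gives many genes a high r: between 409 and 442 of 12586 genes exceeded 0.95 for *Spib*, *Ccl20*, *Ccl9*, *Ccl6* and *Pglyrp1*. Those most like *Spib* were *Pglyrp2* (r = 0.998), *Tnfrsf11b* (0.998) and *Pmp2* (0.997). *Ccl20* was followed most closely by *Cdc42ep2*, *Ncf1* and *Plxnc1* (1.0 each to 3 digits), *Ccl6* by *Kif22* (1.0), *Ccl20* and *Ncf1* (0.998 each), *Ccl9* by *Icosl*, *Sspo* and *Hmgcs1* (0.999 each), and *Pglyrp1* by *Dscaml1*, *Nudcd2* and *Ubd* (0.999 each). *Gp2* had 91 genes above 0.95, led by *Fkbp2* (0.996), *Reg1* (0.993) and *Nr1h4* (0.992). For *Anxa5* they were *Bhlhe40* (0.999), *Stfa3* (0.999) and *S100a6* (0.997), and for *Tnfaip2* the joint entry *Snrpn*,*Snurf* (0.997), *Aoc2* (0.997) and *Tmem79* (0.996).

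Among the members themselves, *Spib* and *Ccl9* (r = 0.997) and *Ccl20* and *Ccl6* (0.998) were the closest pairs. The first pair had near equal levels in both genotypes under RANKL and the second had lower values in both *Jmjd6*-/- libraries. *Gp2* stood apart, with r from -0.05 with *Tnfaip2* to 0.663 with *Ccl20*.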

How the data were processed

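The authors sequenced poly-A RNA as 101-base read pairs after 8 PCR cycles (TruSeq RNA Sample Prep Kit v2), mapped the reads to mm10 with TopHat2 2.0.10 and computed the deposited FPKM, 1 value per gene entry and library, with Cufflinks 2.1.1 (versions from the submitters' processing notes). Cufflinks ran with its correction for multiply mapped reads and with a stranded setting, yet no step that keeps strand is named for the libraries, so values of overlapping genes on opposite strands are uncertain. The members and lists were chosen with earlier results of these data known.

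FPKM were used as deposited. In R 4.3.3, limma 3.58.1 was fitted with a mean-variance trend to log2(FPKM + 0.1), over the 15894 of 22513 entries that averaged 0.1 FPKM or more, with Benjamini-Hochberg adjustment over all of them and a threshold of 0.05. A difference on this scale understates the change of low genes. The RANKL effect had genotype as a term, and the other comparisons used a mean for each group. Simulated data with large added shifts served to check the code of the fit. They do not measure how often smaller differences would be found in these libraries. Folds are ratios of mean FPKM.

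Depth was estimated from FPKM values below 0.15 in genes with a single transcript, and is approximate. Each value was read as a single fragment, using the transcript length less 150 bases, and the commonest resulting depth was taken. For a library at 0, the level of 3 fragments was the limit used. Limits and intervals cover counting error only. Samples were grouped by their titles. Named were all members, up to 4 genes per list with the largest change among those that passed, and the 3 genes most like each member of 1 FPKM or more. The markers at or near 0, the genes beside *Spib*, *Sox8*, *Gp2* and *Ccl6*, and the acinar list were added after values were seen. Promoter windows came from RefSeq, and the *Ccl20* interval from SciPy 1.17.1. *Ly6g* was not analysed here.

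The alternatives changed the constant (1 or 0.01), the filter (none, or 1 FPKM), the trend, the scaling (equal totals, or median ratio), the libraries (each RANKL library left out, or the 4 RANKL libraries alone, without and with the replicate number as a block) and the averaging of responses. Leaving out each unstimulated library was chosen after seeing the data.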

Additional observations from a re-analysis of the deposited data

How the results depend on the processing

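The rise with RANKL of *Spib*, *Ccl20*, *Ccl9*, *Ccl6* and *Pglyrp1* kept its direction and its call in all 14 alternatives, while *Anxa5* lost its call in 7, including those with no filter (adjusted p = 0.0849), no trend (0.0546) and averaged responses (0.0538) by limma. The number of members called higher lay between 5 and 7 and 0 were called lower. Between the genotypes, the number of members called lower in *Jmjd6*-/- was 0 without the filter on low values and 0 to 2 with 1 RANKL library left out, and the number called higher was 0 to 1, the 1 being *Spib* without WT RANKL 1, where 1 WT library remains. With the replicate block, 3 members were called lower, *Gp2* (adjusted p = 1.87e-05), *Ccl20* (0.00283) and *Pglyrp1* (0.0347), but the libraries share only a number: the deviations of same-numbered libraries from their group means correlated at -0.0778 over 12587 genes. For the difference in response no member passed in any of the 11 alternatives.

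Genotype differences near 0 changed sign. That of *Spib* was -0.0114 with median-ratio scaling and -0.23 to 0.26 with 1 RANKL library left out; over the same fits that of *Sox8* ran from -0.16 to 0.11 (0.02 without *Jmjd6*-/- RANKL 2) and that of *Ccl9* from -0.14 to 0.0708 (0.0665 without *Jmjd6*-/- RANKL 2). The difference in response ran from -0.14 to 0.36 for *Spib* and from -0.19 to 0.028 for *Ccl9* (0.0238 without *Jmjd6*-/- RANKL 2), and for *Ccl20* was 1.32 with a constant of 0.01, where its unstimulated values are near 0. Apart from *Ccl20*, the cause was not tested.

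Counts over all genes moved more. The 1675 called higher with RANKL became 788 without the filter, 623 and 994 without the WT and the *Jmjd6*-/- unstimulated library, and 979 and 1098 without *Jmjd6*-/- RANKL 1 and 2. The 654 called lower became 299 without the filter, 398 without the trend, 365 with averaged responses, and 54 to 1478 with 1 library left out. The 82 called higher in *Jmjd6*-/- became 1 without the filter, 382 with the block, and 20 to 2254 with 1 library left out, the last without WT RANKL 1. The 290 called lower became 180 with a constant of 0.01, 1 without the filter, 172 with a filter at 1 FPKM, 1077 with the block, and 68 to 1737 with 1 library left out. The 0 genes with a different response became 93 and 83 (higher and lower) without the filter, and up to 4 and 1 with 1 library left out. No scaling moved the median of all genes by 0.1. Fits with 1 library left out assume that a lone library varies like the other groups. The members with the fewest fragments without RANKL were *Ccl20*, *Pglyrp1* and *Sox8*, whose values there are the least precise.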
